A study of Mus musculus with 6 samples.

Results

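The regions described here are 955 stretches of open chromatin that had a peak in every library of mouse hepatocyte nuclei and were clearly more accessible after loss of the NCOR corepressors. Accessibility was measured by ATAC-seq, an assay whose transposase inserts sequencing adapters where DNA is exposed. Peaks of 6 libraries were merged into 109853 regions, of which 51749 had a peak in all 6 libraries and are called shared. The value of a region in a library is its highest normalized tag count there, a number of tags per peak that the authors normalized in a way the lists do not describe. A region was kept where its lowest dKO value was at least 1.4 times its highest control value, which 1.85% of shared regions met. The regions were thus chosen by the dKO and control tag counts themselves, so the difference between the groups in them is a description and carries no test.

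The dKO group held 3 libraries of male Ncor1/2 F/F mice, with both corepressor genes floxed, that had received an adeno-associated virus (AAV) carrying Cre. The control group held 3 libraries of male Ncor1/2 F/F mice given AAV-eGFP. Livers of both groups were collected on day 5 after the virus at zeitgeber time 10, and flow cytometry sorted the nuclei that stained for HNF4a, which marks hepatocytes, before Omni-ATAC. The promoter that drives Cre, the age of the mice and whether each library is a separate animal are not stated in the labels, so p-values measure only the spread between these libraries, which may be technical. The lists held 71473 to 84614 peaks in dKO and 68316 to 83371 in control. Depth in tags is not given, and the peaks were narrower in dKO 1, dKO 2 and control 1 (the narrow-peak libraries) than in dKO 3, control 2 and control 3 (the wide-peak libraries). Shared regions lay at the hepatocyte genes Alb, Apob, Hnf4a and Ttr, which does not measure the purity of the sort. For Apoa1, also chosen for this check, no shared region was listed. Signal at Hnf4a was lower in every dKO library than in every control library, while the groups overlapped at Alb, Apob and Ttr. Marker genes of 7 other liver cell classes had 143 shared regions, of which 2 belonged to the higher set, at the endothelial marker Oit3 and the cholangiocyte marker Ehf. A count of 2 is too small to read against the 1.85% of all shared regions in the set. A larger share of open nuclei and more accessibility per nucleus cannot be told apart in these libraries.

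NCOR1 and its paralogue are scaffold proteins that bind nuclear receptors lacking an activating ligand, such as thyroid hormone receptors, and also REV-ERB proteins. They carry the histone deacetylase HDAC3 and the WD-repeat proteins TBL1X and TBL1XR1, and removal of acetyl groups from histones is associated with compact, less accessible chromatin. In liver these complexes are known for restraining genes of lipid metabolism and of the circadian clock.

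Of the 955 regions, 15 overlapped the window from 250 bases before to 50 bases after an annotated start of a protein-coding gene in the promoter table used. These are the regions of the set for which RefSeq promoter sequence (build GRCm38.p6, the assembly behind mm10) was at hand. The 5 windows below were chosen after their values were seen: the 4 with the widest gap between dKO and control, and that of Rab11fip3 for its motif. Each is written along the gene's strand, and capitals mark the bases inside the accessible region, to within 1 base because the lists do not state how they count positions. Npas2 lies at chr1:39194022-39194321 (plus strand), Fhdc1 at chr3:84480390-84480689 (minus), Rgs8 at chr1:153652787-153653086 (plus), Acot1 at chr12:84009252-84009551 (plus) and Rab11fip3 at chr17:26021811-26022110 (minus).
Npas2: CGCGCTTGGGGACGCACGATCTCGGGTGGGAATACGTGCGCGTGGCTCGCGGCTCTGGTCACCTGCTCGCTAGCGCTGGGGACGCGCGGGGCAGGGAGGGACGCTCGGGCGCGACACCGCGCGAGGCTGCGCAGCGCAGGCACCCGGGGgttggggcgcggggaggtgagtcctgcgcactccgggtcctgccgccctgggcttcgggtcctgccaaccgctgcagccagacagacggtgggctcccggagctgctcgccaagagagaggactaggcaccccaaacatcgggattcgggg
Fhdc1: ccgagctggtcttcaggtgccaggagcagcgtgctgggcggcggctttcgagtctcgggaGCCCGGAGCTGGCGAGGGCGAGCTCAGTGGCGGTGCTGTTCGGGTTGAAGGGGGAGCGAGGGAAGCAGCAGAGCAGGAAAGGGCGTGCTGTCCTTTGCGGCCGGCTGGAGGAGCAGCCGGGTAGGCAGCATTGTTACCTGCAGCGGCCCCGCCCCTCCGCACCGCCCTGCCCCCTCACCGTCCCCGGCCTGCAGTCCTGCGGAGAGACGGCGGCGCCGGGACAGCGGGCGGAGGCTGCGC
Rgs8: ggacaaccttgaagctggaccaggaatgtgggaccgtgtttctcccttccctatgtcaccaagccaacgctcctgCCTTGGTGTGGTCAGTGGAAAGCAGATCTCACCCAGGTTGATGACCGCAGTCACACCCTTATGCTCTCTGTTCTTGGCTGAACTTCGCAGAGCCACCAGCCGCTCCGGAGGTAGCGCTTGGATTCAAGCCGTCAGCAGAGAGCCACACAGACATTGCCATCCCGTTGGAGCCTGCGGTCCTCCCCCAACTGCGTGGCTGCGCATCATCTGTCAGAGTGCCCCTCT
Acot1: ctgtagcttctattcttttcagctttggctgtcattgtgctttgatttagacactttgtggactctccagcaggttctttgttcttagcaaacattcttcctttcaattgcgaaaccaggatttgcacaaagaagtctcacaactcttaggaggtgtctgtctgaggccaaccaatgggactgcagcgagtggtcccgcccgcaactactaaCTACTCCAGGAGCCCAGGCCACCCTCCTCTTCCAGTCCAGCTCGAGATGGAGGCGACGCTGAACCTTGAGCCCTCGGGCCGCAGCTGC
Rab11fip3: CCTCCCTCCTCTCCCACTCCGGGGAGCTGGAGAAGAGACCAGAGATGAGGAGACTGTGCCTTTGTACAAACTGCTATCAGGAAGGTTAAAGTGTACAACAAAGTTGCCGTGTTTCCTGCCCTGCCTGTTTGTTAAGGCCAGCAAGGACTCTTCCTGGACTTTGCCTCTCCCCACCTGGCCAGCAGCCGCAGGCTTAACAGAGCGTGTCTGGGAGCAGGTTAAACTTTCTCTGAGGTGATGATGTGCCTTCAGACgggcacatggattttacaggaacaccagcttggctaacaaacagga

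Npas2 encodes a circadian transcription factor that pairs with BMAL1 as CLOCK does. The region over its promoter had 22.2, 22.4 and 24.8 normalized tags in dKO 1, 2 and 3, against 6.33, 11.4 and 11.7 in control 1, 2 and 3. The region at Fhdc1, a formin gene, had 22.4, 19.5 and 20.8 tags in dKO and 7.5, 10.4 and 7.91 in control. In both, every dKO library stood well above every control library, as the rule requires. Rgs8, which encodes a regulator of G protein signalling, had 13.7, 12.4 and 9.36 tags in dKO against 4.84, 5.31 and 4.71 in control. Acot1 encodes an acyl-CoA thioesterase that is induced by the fatty acid receptor PPAR alpha. Its region began just upstream of the start and ran past it, with 35.6, 28.4 and 32.1 tags in dKO and 16.7, 15.1 and 13.0 in control. Rab11fip3, the gene of a Rab11 effector, had 26.3, 18.4 and 18.8 tags in dKO and 10.4, 11.8 and 8.75 in control. The other 10 promoter regions lay at BC016579, Lrrc39, Pqlc3, Bspry, Stx11, Msh4, Plekhm3, Adcy7, Smagp and Tmcc3, with margins (the lowest dKO over the highest control value) of 1.41 to 1.65.

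Short motifs were searched on both strands of these windows, with overlapping matches allowed. The nuclear receptor motif AGGTCA was in 3 of the 15 windows (BC016579, Plekhm3 and Adcy7), against 14.7% of 21262 windows of protein-coding genes. Direct repeats of it with 1 or 4 bases between the copies were in 0 of 15, against 0.047% and 0% of all windows. The motif AGAACA of the glucocorticoid receptor was in 2 (Rgs8 and Acot1), against 16.2%. The HNF4 motif CAAAGTCCA was in Rab11fip3 only, on the opposite strand from base -96 to -88 and inside the accessible part, against 0.452% of all windows. The GC box GGGCGG was in 9 of 15 against 46.2%, and CCAAT was in 1 (Acot1) against 38.2%. TGANTCA and CACGTG were in 1 window each (Msh4 and Lrrc39), against 6.99% and 7.84%. The GC content of the 15 windows had a median of 58.3%, close to the 56.3% over all windows. A match describes letters and not binding, and counts out of 15 are too few to read as a difference.

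Within the whole set, the median value was 18.9, 15.5 and 14.8 normalized tags in dKO 1, 2 and 3, against 7.45, 7.75 and 7.34 in control 1, 2 and 3. Over all shared regions the medians were 15.6, 13.5 and 17.4 in dKO and 16.0, 16.1 and 16.3 in control. The control medians of the set were thus below those of all shared regions, and its dKO medians were at about their level. Choosing regions by low control and high dKO values partly fixes this. The ratio of the mean dKO to the mean control value had a median of 2.04, with quartiles of 1.83 and 2.37 and a range of 1.48 to 6.07, and was at least 2 in 517 regions (54.1%). The margin had a median of 1.58, was at least 2 for 0.209% of all shared regions and above 3 for 1 region. Regions of middle strength met the rule most often. In 5 bins of equal size by the mean over all 6 libraries, from weakest to strongest, 1.401%, 3.69%, 2.88%, 1.15% and 0.106% of shared regions were in the set. The bins use the same values as the rule, so the choice of regions partly fixes this pattern too.

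**Figure D1:**
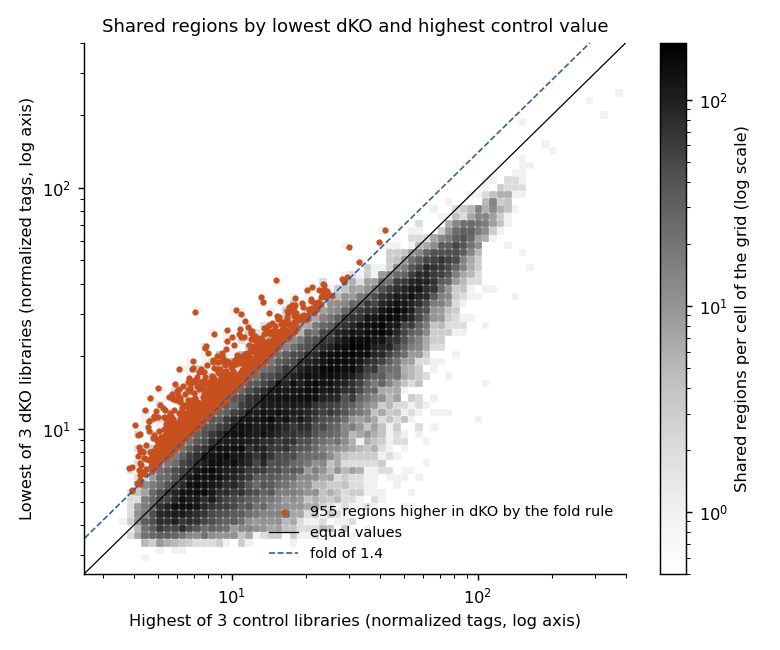
Lowest of the 3 dKO values (y axis) against the highest of the 3 control values (x axis) in normalized tags, both on log axes. Grey squares count all 51749 shared regions, orange points are the 955 regions of the set, and the lines mark equal values and a fold of 1.4. The set forms the upper edge of a continuous cloud and no region of it exceeds 41.8 tags in control.

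There was no gap at the threshold. Just inside, regions near Tuba3b and inside Aff1 both had a margin of 1.4, and the Aff1 region had 23.8, 19.6 and 18.9 tags in dKO against 11.1, 13.5 and 10.7 in control. Just outside, a region inside Traf5 also had 1.4 after rounding, with 15.6, 13.2 and 14.1 tags in dKO against 8.57, 9.43 and 9.14 in control. The remaining neighbours of the threshold were a region without a gene within 50 kb on chromosome 8 just inside, and one near Ino80 and one without a gene on chromosome 5 just outside. Membership therefore separates regions of near equal values at this edge.

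The mirrored rule, with the lowest control value at least 1.4 times the highest dKO value, was met by 415 shared regions (0.802%). Higher regions made up 69.7% of both sets with values as deposited, 58.4% (975 higher, 695 lower) with each library divided by its median and 53.8% (837 and 718) after quantile normalization, so the size of the excess of higher regions depends on the scaling. Of the 955, 740 also met the rule after division by the library medians and 645 after quantile normalization. All 955 were among the 4240 shared regions (8.19%) called higher by limma with Benjamini-Hochberg adjustment, which follows from the way they were chosen. Other measures had an excess of lower regions. Limma called 5995 (11.6%) lower, and lower calls also led after quantile normalization (4585 against 4473) and without centring (4655 against 2562). All dKO values lay below all control values in 15.8% of shared regions and above them in 12.6%. The direction of the excess thus depends on the measure. The count of higher calls by limma was 1633 without dKO 1 and 1257 without dKO 2, against 5174 without dKO 3. It was 2925 to 3532 without a control library, and 4279 with peak width class as a term. The cause of these shifts was not tested.

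The dKO libraries were not alike in these regions. The lowest dKO value came from dKO 3 in 504 regions, from dKO 2 in 391 and from dKO 1 in 60, although dKO 3 gave the lowest dKO value in 7.53% of all shared regions. After division by the library medians dKO 3 was the lowest in 902 of the 955 regions, against 31.9% of all shared regions. The highest dKO value came from dKO 1 in 778. Peak width moves with this order, since dKO 3 is a wide-peak library, and its part was not tested. Within the narrow-peak libraries the dKO over control ratio had a median of 2.15 (quartiles 1.85 and 2.65), and within the wide-peak libraries 1.88 (1.69 and 2.14). It was larger within the narrow-peak libraries in 709 regions. The highest control value was spread over the control libraries, with 303, 395 and 257 regions for control 1, 2 and 3.

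The widest margin, 4.32, belonged to a region on chromosome 11 from 88639766 to 88639968 (mm10, positions as deposited). It lies inside Msi2, whose product binds RNA. The region had 41.8, 35.0 and 30.6 tags in dKO and 5.16, 7.08 and 5.44 in control. Next came a region 8550 bp from Fcgr3, the gene of an Fc receptor of immune cells, with 40.4, 35.6 and 31.0 tags in dKO and 10.4, 9.14 and 9.64 in control. A region 2341 bp from Cd276, which encodes an immune checkpoint protein, had 27.6, 20.3 and 14.8 tags in dKO and 5.0, 3.59 and 4.93 in control. In these 3 the order within dKO was the same, with dKO 1 highest and dKO 3 lowest. The same order held near the zinc finger gene Zfp213, 21519 bp away, with 35.8, 30.5 and 24.8 tags in dKO against 8.46, 6.7 and 7.12 in control. Inside Dlg2, which encodes a scaffold protein of synapses, the values were 35.7, 22.6 and 17.7 in dKO against 5.38, 5.36 and 6.11 in control.

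Among the other reported regions of the top 10, the order of the dKO libraries varied. A region 5397 bp from Pom121l2 had 23.9, 22.0 and 25.5 tags in dKO and 5.85, 7.08 and 7.85 in control, with dKO 3 the highest. A pair of regions on chromosome 3 had no protein-coding gene within 50 kb. That at 21825330 to 21825584 had 17.1, 14.2 and 13.4 tags in dKO and 4.63, 4.02 and 4.49 in control. That at 52574445 to 52574677 had 31.8, 37.6 and 30.1 in dKO and 9.95, 9.72 and 10.9 in control. The tenth, inside the span of Fcgr3 at chromosome 1, 171065269 to 171065442, had 54.5, 50.3 and 41.6 tags in dKO and 13.9, 15.0 and 15.1 in control.

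**Figure D2:**
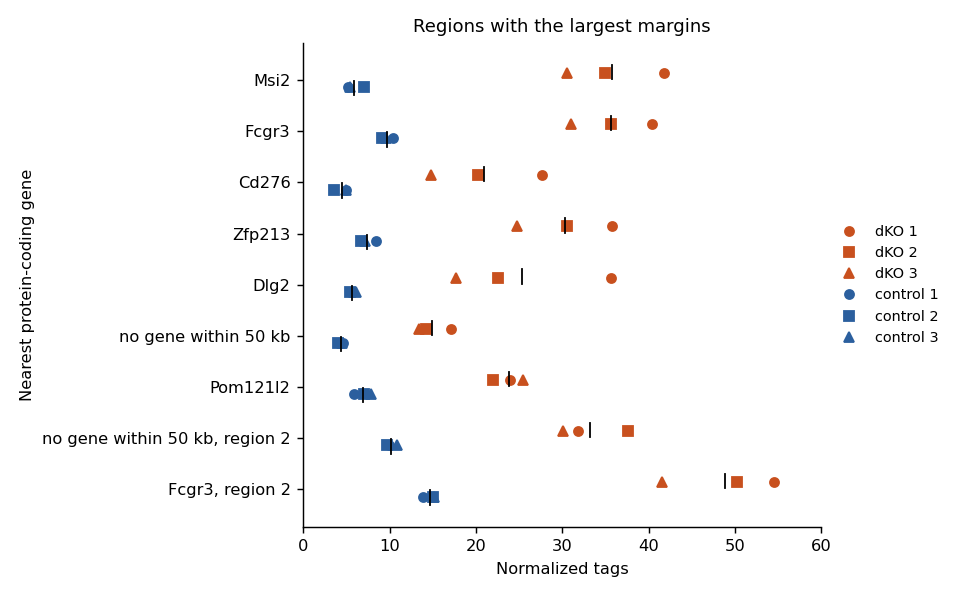
Normalized tags (x axis) of 9 of the 10 regions with the widest margin, listed by nearest protein-coding gene with the widest at the top. Orange marks are dKO and blue marks control libraries, with a shape for each replicate number and a short black line for the group mean. Every dKO mark lies right of every control mark, and dKO 3 is the lowest of the orange marks at every region but that near Pom121l2.

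By the median of the dKO values, the highest region of the set lay 901 bp from Cyp2a5, a cytochrome P450 gene, at chromosome 7, 26844027 to 26844304. It had 72.2, 66.7 and 71.1 tags in dKO and 24.7, 41.8 and 18.7 in control, where control 2 stood apart. A further region lay 935 bp from Cyp2a4, with 33.6, 23.7 and 27.6 tags in dKO and 11, 12.3 and 7.57 in control. Cyp2a4 and Cyp2a5 are near-identical copies, and the regions lie 8831 and 8826 bp downstream of their gene starts, so both values are uncertain. Strong regions also lay near Trim27, a zinc finger ubiquitin ligase gene, with 59.2, 49.1 and 57.5 tags in dKO against 32.7, 27.9 and 32.8 in control, and near Zfp184, a zinc finger gene, with 56.7, 57.0 and 61.6 against 19.9, 19.0 and 29.8. Both are on chromosome 13 within the 1 Mb that held most regions of the set, 8 of its 49 shared regions, together with Zkscan3, Pom121l2 and the histone gene H4bc24. Zinc finger and histone genes there also have close copies.

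The regions of the set were linked to the nearest protein-coding gene within 50 kb in 845 cases, at 697 genes. Most genes had 1 region (580) or 2 (97), and 20 genes had at least 3. Pde4d, which encodes a phosphodiesterase that breaks down cyclic AMP, had the most, with 6 of its 43 shared regions. Their ratios of means were 1.65 to 3.75, and they lay 902 to 1267 kb downstream of the gene's most upstream annotated start. The largest had 16.4, 17.7 and 9.54 tags in dKO against 3.62, 4.21 and 3.81 in control, with dKO 3 well below the other dKO libraries. Of the other 37 Pde4d regions, limma called 10 higher and 1 lower (log2 fold changes of -0.49 to 0.998).

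Msi2 had 5 regions among 19, with ratios of 2.93 to 6.07, and 4 of them lay within 21958 bp. Of these, the region at 88661552 to 88661724 had 50.9, 40.5 and 33.7 tags in dKO and 9.58, 13.4 and 12.8 in control. The other 14 Msi2 regions included 5 called higher and none called lower by limma (log2 fold changes of -0.30 to 0.65). Fcgr3 had 5 regions among 8, all within 17604 bp, with ratios of 1.98 to 3.67. The one with the highest dKO values, at 171064520 to 171064705, overlapped the annotated hairpin of Mir6546 and had 72.3, 59.6 and 71.0 tags in dKO against 25.6, 39.5 and 37.3 in control. Fc receptor genes lie beside similar copies. Of the 15 Kupffer cell and macrophage markers, 4 genes had shared regions, 8 in all, of which 2 were called higher, 1 lower and 0 were in the set. Endothelial markers had 49 shared regions (4 called higher, 7 lower), cholangiocyte markers 38 (3 and 3), stellate cell markers 16 (1 and 0), T and NK cell markers 15 (0 and 1), B cell markers 14 (1 and 0) and neutrophil markers 3 (0 and 0). For all shared regions the shares called were 8.19% higher and 11.6% lower. The part of other cells in the Fcgr3 values was not tested.

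Prkca, the gene of protein kinase C alpha, had 5 regions among 16, with ratios of 1.68 to 2.17, of which 1 lay upstream of the gene and 1 at 867 bp past its start with 18.7, 20.7 and 20.7 tags in dKO and 11.8, 13.0 and 10.9 in control. All of the other 11 Prkca regions had positive log2 fold changes (0.13 to 0.92), and 3 were called higher. Prr5l, whose product binds the kinase complex mTORC2, had 4 among 8 (1.64 to 3.83), and Ldlrad4, a regulator of TGF-beta signalling, 4 among 22 (1.90 to 2.39). Zfp608, a zinc finger gene, had 3 among 24 (1.86 to 3.90). None of the other regions of these genes was called lower by limma, and 1, 4 and 6 of them were called higher at Prr5l, Ldlrad4 and Zfp608.

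Genes of the corepressor complex itself were among those with regions of the set. Tbl1xr1, which encodes a WD-repeat subunit of the NCOR complex, had 3 regions among 12, at 45.3, 79.8 and 92.0 kb past its start. They had 30.3, 29.6 and 24.7, then 12.8, 11.9 and 12.2, then 19.3, 17.7 and 15.8 tags in dKO. Control values were 8.83, 8.04 and 10.7, then 4.31, 4.93 and 4.82, then 4.26, 6.56 and 7.06. The start of Tbl1xr1 was also the nearest annotated gene start to 6 more regions of the set, 5 upstream at positions from -580.3 to -82.5 kb and 1 at 625.0 kb downstream, none of them with a protein-coding gene within 50 kb. The region at 21825330 of the top 10 is 1 of them. Tbl1x, its X-linked paralogue, had a region with 13.1, 11.4 and 10.1 tags in dKO against 5.91, 5.31 and 6.67 in control, and was 1 of the 5 regions on chromosome X, where 0.463% of shared regions were in the set against 1.36% to 2.54% on each autosome. Nrip1, which encodes another nuclear receptor corepressor, had a region at 26863 bp from the gene with 14.1, 15.2 and 13.5 tags in dKO and 7.45, 9.14 and 9.08 in control. Prdm2, a histone methyltransferase gene, had 35.4, 36.1 and 36.2 against 11.7, 13.1 and 11.2, the narrowest dKO spread among these. Over the 19 corepressor and deacetylation genes, 6 of 125 shared regions (4.8%) were in the set, against 1.85% of all shared regions. Of these 6, 3 were those of Tbl1xr1. Over the list limma called 17 (13.6%) higher and 16 (12.8%) lower, against 8.19% higher and 11.6% lower over all shared regions. The list counts were 22 and 10 after quantile normalization and 10 and 12 without centring.

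**Figure D3:**
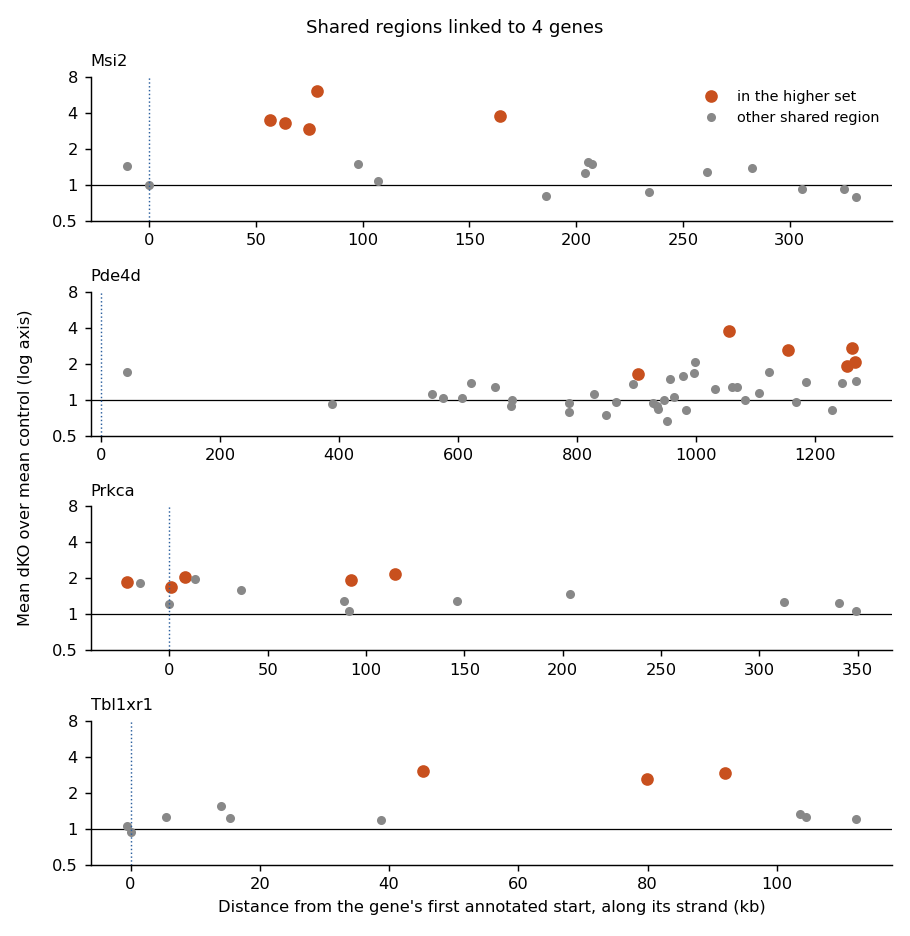
Ratio of the mean dKO to the mean control value (y axis, log scale) of every shared region linked to Msi2, Pde4d, Prkca and Tbl1xr1, by distance from the gene's most upstream annotated start in kb (x axis). Orange points belong to the set and grey points do not. At Msi2 a run of regions past 50 kb stands apart while the region at the start has a ratio near 1, and at Prkca the grey points also lie above 1.

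Regions of the set were rarely at gene ends. Of the 955, 39 (4.08%) had their midpoint within 1 kb of either end of a protein-coding gene, against 11445 of the other 50794 shared regions (22.5%) and 30 of the 415 lower regions (7.23%). Outside chromosome 18, 21 of 922 (2.28%) lay within 1 kb of an annotated gene start, against 19.1% of all shared regions, and the median distance was 37649.5 bp, against 23888 bp. Among other shared regions the share at gene ends rises with signal, so the shares were also taken within the 5 bins of signal. From weakest to strongest they were 2.76%, 3.14%, 3.69%, 7.56% and 27.3% in the set and 7.91%, 9.94%, 16.1%, 27.3% and 50.7% among the other shared regions, the last with only 11 regions of the set. Regions are not replicates, so no test over regions was run. In the limma fit, which covers all shared regions, of 7397 shared regions over a promoter window, 1.99% were called higher and 10.96% lower, against 8.19% and 11.6% over all shared regions.

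More regions of the set lay inside genes, and those genes were longer. In the set, 600 regions (62.8%) were inside a protein-coding gene, against 57.0% of all shared regions and 41.0% of the lower regions. The median length of the gene around a region was 109584.5 bp in the set, 103762 bp for lower regions and 72080 bp for all shared regions. Regions without a gene within 50 kb made up 11.5% of the set, 22.7% of lower regions and 10.8% of all shared regions, and 11.8% of the set was inside a long noncoding RNA gene against 10.8% of all shared regions. Whether a region is exonic or intronic was not analysed here.

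**Figure D4:**
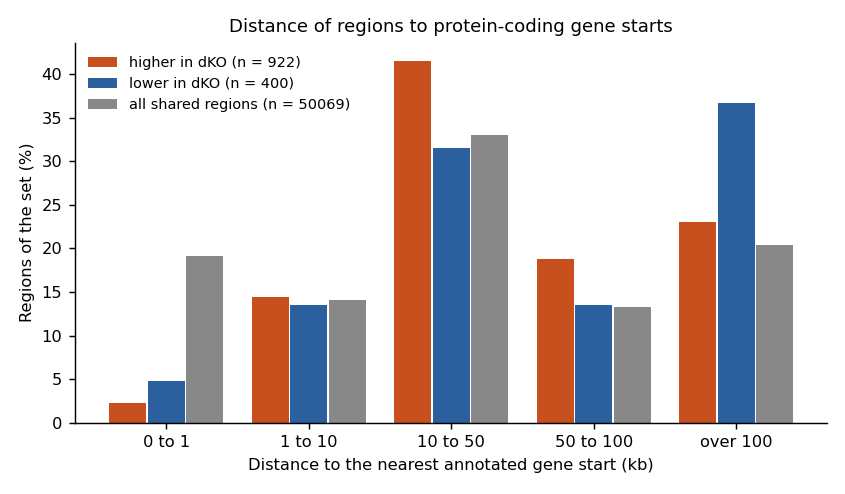
Share of regions (y axis, %) by distance of the midpoint to the nearest annotated start of a protein-coding gene (x axis, kb), for the higher regions, the lower regions and all shared regions outside chromosome 18. Within 1 kb of a start lie 2.28% of the higher, 4.75% of the lower and 19.1% of all shared regions, while 41.5% of the higher regions lie at 10 to 50 kb.

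Shared regions beside the set, which the rule had not admitted, were called higher more often than those farther away. They were measured in the same libraries that chose the set, so they are no independent evidence. Of the 792 other shared regions within 10 kb of a region of the set, limma called 193 (24.4%) higher and 38 (4.80%) lower, against 6.18% higher and 11.9% lower among the 50002 farther away. The share called higher was lower at each longer distance, with 48 of 118 (40.7%) within 2 kb, 145 of 674 (21.5%) at 2 to 10 kb, 413 of 3232 (12.8%) at 10 to 50 kb and 5.73% beyond. Their median log2 fold changes were 0.36, 0.21, 0.07 and -0.04. Within the narrow-peak libraries the medians were 0.43, 0.23, 0.08 and -0.06, and within the wide-peak libraries 0.27, 0.15, 0.08 and -0.01 in the same order of distance. The largest log2 fold changes among the 193 were at Tmem154, with 28.7, 14.9 and 18 tags in dKO against 6.76, 12 and 8.69 in control (log2 fold change 1.13, SE 0.23), and near Usp12, with 19.8, 10.6 and 12.8 against 8.14, 5.65 and 5.1 (1.12, SE 0.22). The count of called regions rested on dKO 1 and dKO 2: without dKO 1, 6.69% of the 792 were called higher against 1.33% farther away, and without dKO 2 4.42% against 0.808%. Without centring the shares were 12.5% against 3.02%, and without control 3 they were 15.4% against 3.70%.

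**Figure D5:**
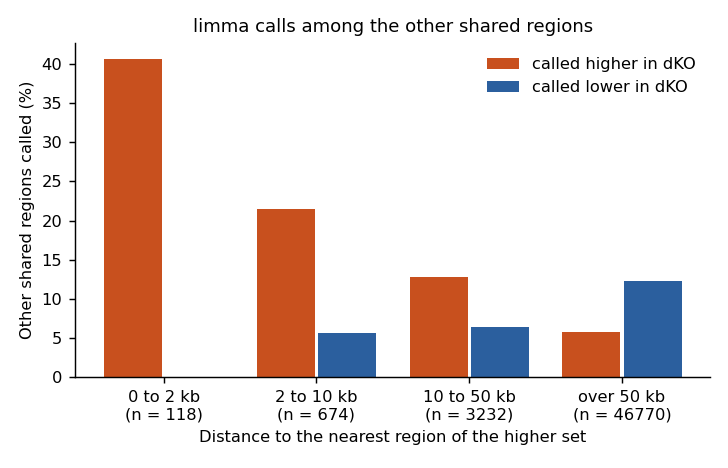
Share of shared regions outside the set (y axis, %) that limma called higher or lower in dKO, by distance to the nearest region of the set (x axis), with the number of regions under each pair of bars. The share called higher is 40.7% within 2 kb and 5.73% beyond 50 kb, and the share called lower is 0% and 12.3%.

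The regions also lay near each other and near sites seen in dKO alone. Both kinds of site were picked by values of the same libraries, so this is a description and no independent evidence. Another region of the set was within 10 kb for 101 of the 955 (10.6%), while 1.56% of the other shared regions had a region of the set that close. A site with a peak in all 3 dKO and in no control library lay within 10 kb of 77 regions of the set (8.06%), against 3.16% of the other shared regions. For sites with a peak in all 3 control and in no dKO library the shares were 2.30% and 2.13%. Runs of at least 3 regions of the set, each at most 20 kb from the next, occurred at 7 places, among them Fcgr3, Msi2, Pde4d, Trio, Lrig2 and Stk24. At Hilpda, which encodes an inhibitor of lipolysis at lipid droplets, a run of 4 spanned 33232 bp.

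Among genes of lipid metabolism, Plin2, which coats lipid droplets, had a region 11748 bp away with 47.0, 35.2 and 33.8 tags in dKO and 11.1, 15.7 and 12.3 in control. With Acot1, Cyp4a31 and Pdk4 it made up the 4 of 91 shared regions at 38 PPAR alpha target genes that were in the set. Over those 91 regions limma called 15 (16.5%) higher and 14 (15.4%) lower. For scale, 1.85% of all shared regions were in the set, 8.19% were called higher and 11.6% lower. Which direction was more frequent at the PPAR alpha targets turned with the scaling (15 and 12 after quantile normalization, 9 and 12 without centring). Me1, the malic enzyme gene, had a region inside the gene with 36.5, 31.1 and 24.7 tags in dKO and 13.5, 11.7 and 6.39 in control. A pair of regions at Elovl5, a fatty acid elongase gene, completed the 3 of 103 at lipogenesis genes. There 12 (11.65%) were called higher and 18 (17.5%) lower, with 15 and 16 after quantile normalization and 7 and 16 without centring. None of the 63 regions at LXR targets or of the 79 at sterol synthesis genes was in the set. At LXR targets 9 (14.3%) were called higher and 8 (12.7%) lower, 10 and 3 after quantile normalization and 4 and 4 without centring. At sterol synthesis genes 2 (2.53%) were called higher and 19 (24.1%) lower.

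The thyroid hormone list, which also holds genes of the receptor and of the corepressor complex, had 7 of 118 shared regions in the set. Of these, 3 were those of Tbl1xr1, which is in the corepressor list as well. The others were at Me1, Thrb, Ncoa1 and Klf9, of which Me1 is also in the lipogenesis list and Klf9 in the glucocorticoid receptor list. Thrb, the gene of thyroid hormone receptor beta, had 45.1, 38.7 and 40.6 tags in dKO and 20.6, 21.2 and 20 in control at a region inside the gene, a tight pair of groups. Over this list 22 regions (18.6%) were called higher and 20 (16.9%) lower. These counts were 21 and 12 after quantile normalization and 15 and 13 without centring. By comparison, limma called 8.19% of all shared regions higher and 11.6% lower, and 1.85% were in the set. At clock genes 7 of 130 were in the set, at Nfil3, Npas2, Arntl and Cry1. Nfil3, the gene of a repressor of clock output, had a region 26020 bp away with 14.8, 11.3 and 11.2 tags in dKO and 4.95, 5.5 and 5.27 in control. Arntl, the gene of BMAL1, had 31.4, 20.6 and 21.2 against 10.1, 11.7 and 8.47 inside the gene. Over the clock list 20 regions (15.4%) were called higher and 16 (12.3%) lower, with 21 and 9 after quantile normalization and 13 and 10 without centring.

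The list for glucose production, which the series title names, and its regulation held 5 regions of the set among 163 (3.07%), against 1.85% of all shared regions. None of the 5 was at the gene of an enzyme of glucose synthesis. Of the 163, limma called 21 (12.9%) higher and 39 (23.9%) lower, against 8.19% and 11.6% of all shared regions. These counts were 24 and 27 after quantile normalization and 12 and 31 without centring. Sik1, a kinase gene of the cyclic AMP response, had a region 18387 bp away with 30.5, 19.6 and 24.9 tags in dKO and 10.5, 10.1 and 7.63 in control. Irs2, an insulin signalling gene, had a region 38360 bp away with 39.6, 32.7 and 32.6 against 16.5, 16.8 and 17.5. The remaining 3 were a pair inside Ppargc1b, a coactivator gene, and a region near Slc16a1, a lactate transporter gene. Among 119 regions at glucocorticoid receptor targets, 7 (5.88%) were called higher and 36 (30.3%) lower, and the 3 in the set (2.52%) had narrow margins. They were a Pdk4 region with 34.8, 31.2 and 35.8 tags in dKO against 21.0, 17.1 and 20.5 in control, and regions near Nr3c1, the receptor gene itself, and Klf9.

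At bile acid genes 4 of 88 regions were in the set, and limma called 12 (13.6%) higher and 19 (21.6%) lower. These counts were 12 and 7 after quantile normalization and 11 and 11 without centring. For each list here the shares over all shared regions are 1.85% in the set, 8.19% called higher and 11.6% called lower. The values were 15.4, 11.1 and 13.8 tags in dKO against 4.47, 6.46 and 6.39 in control inside Abcb11, the bile salt export pump gene, and 18.9, 17.9 and 15.2 against 7.61, 8.14 and 9.31 inside Abcc4, an efflux transporter gene. At antioxidant genes 4 of 72 were in the set, with 13 (18.1%) called higher and 9 (12.5%) lower. The calls were 13 and 7 after quantile normalization and 9 and 8 without centring. The regions of the set were led by one 4999 bp from Txnip, which restrains thioredoxin, with 40.6, 29.4 and 37.5 tags in dKO and 11.2, 15.3 and 11.7 in control. Srxn1, a sulfiredoxin gene, had 58.2, 33.2 and 34.9 against 17.2, 19.2 and 16.1. Growth hormone signalling genes had 2 of 94 (Cux2 and Trim24), with 11 (11.7%) called higher and 17 (18.1%) lower. The calls were 9 and 16 after quantile normalization and 4 and 18 without centring. Cell cycle genes had 1 of 91 (Yap1), with 6 (6.59%) called higher and 7 (7.69%) lower. The calls were 4 and 5 after quantile normalization and 1 and 7 without centring. Xenobiotic cytochromes and their receptors had 2 of 69, those of Cyp2a4 and Cyp2a5, with 6 (8.70%) called higher and 12 (17.4%) lower.

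At genes of liver function, counts of the set were too small to read against the 1.85% of all shared regions. Amino acid and urea cycle genes had 1 region of the set among 85, near Glul. Limma called 1 (1.18%) of the 85 higher and 46 (54.1%) lower, against 8.19% and 11.6% of all shared regions. Hepatocyte identity genes had 1 among 104, near Apoh, with 5 called higher and 27 lower. Acute phase genes had 0 among 83 (2 called higher, 24 lower), and stress and p53 genes 0 among 70 (10 called higher and 9 lower, 12 and 7 after quantile normalization, 4 and 8 without centring). In the amino acid, hepatocyte identity and acute phase lists the lower calls outnumbered the higher ones under each of the 3 scalings run. Among regions within 1 kb of a gene end, wide margins were also seen at Map3k1, a MAP kinase cascade gene, with 24.1, 19.1 and 17.3 tags in dKO and 6.81, 7.61 and 6.9 in control 398 bp from the gene, and Serpina7, the gene of thyroxine-binding globulin, with 13.3, 11.3 and 11.7 against 5.64, 5.22 and 5.38 at 499 bp.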

How the data were processed

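The authors deposited 1 peak list per library, with the columns that HOMER writes, per the file headers. Tools named are HOMER 4.11, SAMtools 1.10, Picard and Trim Galore 0.6.4, with build mm10, per the submitters' processing notes. For the aligner and any shift of cut sites, nothing is stated in the labels. The lists hold the authors' normalized tag count per peak (a signal), a peak score and a fold over the local surroundings (a deposited ratio, not used for any result here). The score served only to filter peaks within a list.

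Overlapping peaks (at least 1 bp; autosomes and X) were merged. The set follows the fold of 1.4 on values as deposited, with no scaling. For the background, log2(value + 1) was centred on each library's median over shared regions and fitted with limma 3.58.1 (R 4.3.3) with a mean-variance trend, group as the only term and Benjamini-Hochberg adjustment over all 51749 regions (2-sided, threshold 0.05). The fit was tested on simulated data with the same noise for every region and no library effects. That test does not cover noise that varies with signal or libraries that differ. The smallest p of an exact permutation test on 3 and 3 libraries is 0.1. Gene spans and starts came from RefSeq (GRCm38.p6), and linking used the closest protein-coding gene within 50 kb of a region's midpoint. The promoter table used has no windows on chromosome 18.

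The regions and the 25 lists were chosen with earlier results of these data known. Of the genes named, the rule took the 10 widest margins, the 5 highest levels, the 5 widest at gene ends, up to 2 regions per list and the 8 genes with most regions, plus the 3 regions on each side of the threshold. Others were named after their values were seen. Of the 10 widest margins, 1 region is not reported here. Deviations from the group means correlated at 0.15, -0.03 and 0.23 between same-numbered libraries and at -0.23 to 0.157 between the others. These values do not settle whether numbers mark pairs, and numbers were not treated as pairs.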

Additional observations from a re-analysis of the deposited data

How the results depend on the processing

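As a share of the 51749 shared regions, the set of 1.85% became 4.595%, 2.86%, 0.850% and 0.209% at folds of 1.2, 1.3, 1.6 and 2. It was 0.186% with the upper part of each list by score. By construction, fewer libraries admit more regions: leaving out 1 library gave 1.96% to 3.001% (1012 to 1553 regions, and over 1.5 times the set without dKO 2, control 1, control 2 or control 3), and the narrow-peak and wide-peak libraries alone gave 10.1% and 7.30%. Division by library medians, quantile normalization, summing peaks and merging at 50 bp gave 837 to 975 regions.

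The share within 1 kb of a gene end was 2.78% at a fold of 2 and 3.62% to 5.92% without each library. Calls of higher regions by limma, 4240 in all, were 2562 without centring and 1257 to 5174 without each library. Among shared regions within 10 kb of the set the 24.4% called higher became 12.5% without centring, 40.7% within 2 kb, 15.1% within 50 kb and 4.42% to 27.3% without each library, and regions farther away had a lower share in each of these settings. With the replicate number as a block limma called 5417 regions higher and 7384 lower, and 30.2% of the regions within 10 kb higher. The correlations between same-numbered libraries do not settle whether numbers mark pairs. With peak width class as a term it called 4279 higher and 5930 lower. The cause of these shifts was not tested. Depth in tags is not given, so the counting error of single values is unknown.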
